A study of Mus musculus with 8 samples.

Results

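The genes described here encode the chains of collagen. They were taken as every gene of the deposited count table whose symbol is Col, a number, the letter a and a number, which gave 44 of 32499 genes. By collagen type they fell into 11 fibrillar genes (types 1, 2, 3, 5, 11, 24 and 27), 8 basement membrane genes (types 4, 15 and 18), 6 microfibril genes (type 6) and 19 others. Of the 44 genes, 40 passed the filter on low counts and were tested. Col6a6, Col8a2, Col10a1 and Col13a1 did not pass, and none of them exceeded 1.19 CPM (read counts scaled to the size of the library) in any library.

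RNA was sequenced from neural progenitor cells of C57BL/6 mouse embryos at embryonic day 14. The neural tubes were dissociated with collagenase type 2, and live neural progenitors were sorted by the dye NeuroFluor CDr3. There were 4 libraries from embryos labelled 53BP1 KO, called KO-labelled here, and 4 from wild-type controls. Each KO embryo had a Trp53bp1tm1Jc allele from its mother and a CRISPR in-frame deletion in the same gene from its father, per the labels' protocols. The protocols do not state whether the cells of a library were used directly or after culture in differentiation medium. Nothing in the labels states that the replicates were separate embryos or cultures, and the p-values therefore reflect only how these libraries vary, which may be technical.

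Collagen chains wind around one another into a triple helix, and collagen types differ in the chains they are built from. Fibrillar collagens form the banded fibrils of connective tissue, type IV collagen forms the sheet of basement membranes, and type VI collagen forms beaded microfibrils between the cells and the fibrils. In the embryonic nervous system, fibrillar and microfibril collagens are known mainly from the meninges, vessels and other mesenchyme. Radial glia rest with their endfeet on the basement membrane at the pial surface.

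Total counts ran from 15343046 to 18189045 per control and from 11081419 to 24339621 per KO-labelled library, and 3 counts equalled 0.126 to 0.261 CPM. The sorted cells had the markers of neural progenitors in every library: Fabp7 was between 6315 and 9392 CPM. Of the 10 progenitor genes of the fixed list 6 were higher and 2 lower in the KO-labelled libraries. Nes fell from 212.9 ± 37.2 to 113.9 ± 16.8 CPM (log2 fold change -0.90, SE 0.13, edgeR adjusted p = 0.00013), with no overlap, or by -0.79 without control 4. Vim also fell (-0.39, SE 0.09, edgeR adjusted p = 0.00379). Msi1 (0.87, SE 0.14), Sox2 (0.78, SE 0.10) and Pax6 (0.50, SE 0.13) were among those that rose. Trp53bp1 itself did not pass the test (log2 fold change 0.01, SE 0.14, edgeR adjusted p = 0.96), so its count does not separate the groups. Xist had 23853 to 26134 counts in each control, against 9 to 16 in the KO-labelled group, whereas Ddx3y had 0 in all 4 controls and 579 to 1064 in the KO-labelled libraries. By these genes the controls were female and the KO-labelled libraries male, so genotype and sex cannot be told apart in any difference given below. Over all 15021 genes tested, 30.0% passed the test, 16.1% higher and 13.9% lower.

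The libraries were unevenly placed in the collagen genes. Control 4 was the highest control for 21 of the 40 tested genes, including 9 of 11 fibrillar and 4 of 5 microfibril genes, but the lowest control for 5 of 8 basement membrane genes. KO-labelled 1 was the lowest KO-labelled library for 21 of 40. KO-labelled 2 was the highest for 25 of 40, including 8 of 8 basement membrane and 5 of 5 microfibril genes, and the lowest for 0. Without control 4, 14 of the 15 collagen genes that passed the test with all libraries still passed, and without KO-labelled 1, 12 did. Without KO-labelled 2, 14 of the 15 did, and in all 16 collagen genes fell and 3 rose. Many of the results below are therefore given with and without control 4, though not all that its value moved.

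More collagen genes were lower than higher in the KO-labelled libraries. Of the 40 tested, 11 fell and 4 rose, which is 27.5% and 10% beside 13.9% and 16.1% of all genes. The median log2 fold change was -0.52 over the collagen genes and 0.00 over all genes. By class, 4 fibrillar genes fell and 2 rose, 1 basement membrane gene fell, 3 microfibril genes fell, and of the others 3 fell and 2 rose. The class medians were -0.81 for fibrillar, -0.22 for basement membrane, -1.89 for microfibril and -0.34 for other collagens. In 10 of the 40 genes the highest KO-labelled library was under the lowest control, beside 13.9% of all genes, and in 3 the lowest KO-labelled library was over the highest control, beside 15.9%. A lower count in bulk RNA can come from fewer cells of a type or from less RNA per cell, and these cannot be told apart.

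**Figure D1:**
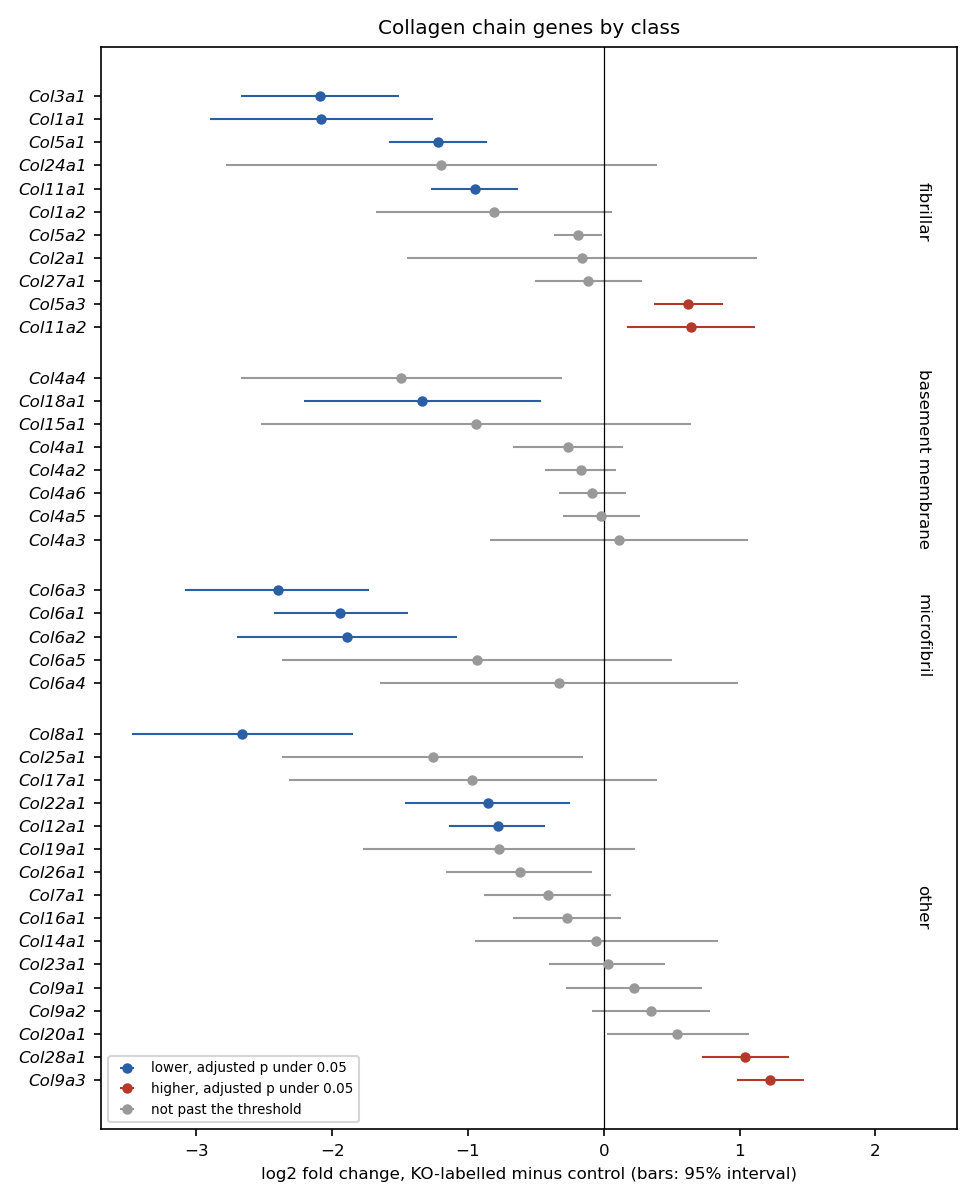
The log2 fold change (KO-labelled minus control) of each of the 40 tested collagen genes with its 95% interval, grouped by class. The microfibril genes Col6a1, Col6a2 and Col6a3 lie between -2.40 and -1.89, and Col9a3 is the highest at 1.22.

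Among the fibrillar genes, Col3a1, Col1a1, Col5a1 and Col11a1 fell, and Col5a3 and Col11a2 rose. Col3a1, the only chain of type III collagen, had 25.1, 19.5, 23 and 54.0 CPM in controls 1 to 4. In KO-labelled libraries 1 to 4 it had 7.18, 7.93, 5.86 and 7.59 CPM. All KO-labelled values lay below all controls, and control 4 was 2.40 times the mean of the other controls. Col3a1 fell by a log2 fold change of -2.09 (SE 0.27, edgeR adjusted p = 5.28e-05), and one of -1.67 without control 4 (adjusted p = 5.9e-08). Col1a1, the main chain of type I collagen, the chief collagen of bone and skin, had 5.21, 4.50, 5.03 and 16.2 CPM in the controls, against 1.72, 1.83, 1.52 and 2.14 CPM in the KO-labelled group. Its control 4 value was 3.30 times the mean of the other controls, and the groups did not overlap. Col1a1 fell, with a log2 fold change of -2.08 (SE 0.38, edgeR adjusted p = 0.000968), and one of -1.44 without control 4 (adjusted p = 3.37e-05).

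Col1a2, the partner chain of Col1a1 in type I collagen, was much lower and its groups overlapped. It had 0.822, 2.12, 1.10 and 2.13 CPM in the controls, against 0.492, 1.31, 1.07 and 0.755 CPM in the KO-labelled group (log2 fold change -0.81, SE 0.41, edgeR adjusted p = 0.151, 95% interval -1.68 to 0.06). Per kilobase of exon, Col1a1 was at 1.18 ± 0.863 and Col1a2 at 0.124 ± 0.0549 CPM in the controls (SD, n = 4).

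Type V and type XI chains are minor partners in fibrils and set the diameter of type I and type II fibrils. Col5a1 had 26.8, 24, 29.0 and 42.9 CPM in the controls, against 11.8, 14.5, 11.8 and 14.5 CPM in the KO-labelled group. It fell, with a log2 fold change of -1.22 (SE 0.17, edgeR adjusted p = 8.43e-05), with no overlap. Col11a1 had 84.6, 77.0, 92.9 and 120.5 CPM in the controls, against 52.7, 53.6, 36.1 and 51.6 CPM in the KO-labelled group, again with no overlap. Its log2 fold change was -0.95 (SE 0.15, edgeR adjusted p = 0.000263). Without control 4 both genes still passed, at -1.03 and -0.82.

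Col5a3 and Col11a2, which encode other chains of the same collagen types, were higher. Col5a3 had 21.3, 22.9, 20.4 and 28.3 CPM in the controls, against 37.6, 34.3, 31.8 and 39.2 CPM in the KO-labelled group. All KO-labelled values lay above all controls, and the gene rose by 0.62 (SE 0.12, edgeR adjusted p = 0.00125). Col11a2 had 2.80, 4.34, 2.45 and 4.46 CPM in the controls, against 5.07, 6.10, 4.28 and 6.46 CPM in the KO-labelled group, and here the groups overlapped. It rose by 0.64 (SE 0.22, edgeR adjusted p = 0.0394). That call was lost without control 1 (adjusted p = 0.10), control 3 (0.116), without KO-labelled 1 (0.0601), 2 (0.0828) or 4 (0.135), and with upper-quartile scaling (0.0558).

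Col5a2 was the most abundant collagen per kilobase of exon in both groups, at 21.3 ± 1.63 CPM per kilobase over the controls and 18.7 ± 1.01 over the KO-labelled group (SD, n = 4 each). It had 202.2, 188.8, 200.4 and 226.1 CPM in the controls, against 182.5, 182.0, 165.3 and 187.5 CPM in the KO-labelled group. The KO-labelled values all lay below the controls, but the difference of -0.19 did not pass the test (SE 0.09, edgeR adjusted p = 0.112, 95% interval -0.37 to -0.01). Col5a2 made up 51.5% of the summed fibrillar CPM in the controls, against 60.4% in the KO-labelled group. Without it, the summed fibrillar level was 171.1, 161.9, 179.1 and 275.8 CPM in the controls, against 120.2, 126.7, 97.1 and 127.7 CPM in the KO-labelled group. These sums did not overlap, and control 4 was again the highest.

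The order of the collagens per kilobase of exon differed between the groups. In the controls Col5a2 was followed by Col11a1 (7.36 ± 1.49 CPM per kilobase), Col9a3 (6.10 ± 0.554), Col5a1 (3.61 ± 0.992), Col4a6 (3.56 ± 0.453), Col5a3 (3.41 ± 0.522) and Col3a1 (3.10 ± 1.62). Apart from Col5a2, neighbours in that order differed by less than the larger of their 2 SDs except Col9a3 and Col5a1. In the KO-labelled libraries the order was Col5a2, Col9a3 (14.3 ± 1.77), Col5a3 (5.25 ± 0.485), Col11a1 (3.81 ± 0.651) and Col4a6 (3.36 ± 0.294), and Col3a1 was 15th of the 44. The remaining fibrillar genes, Col2a1, Col24a1 and Col27a1, did not pass the test, and their log2 fold changes were between -1.2 and -0.12. Col2a1, the main collagen of cartilage, had 0.977 CPM or less in every control.

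**Figure D2:**
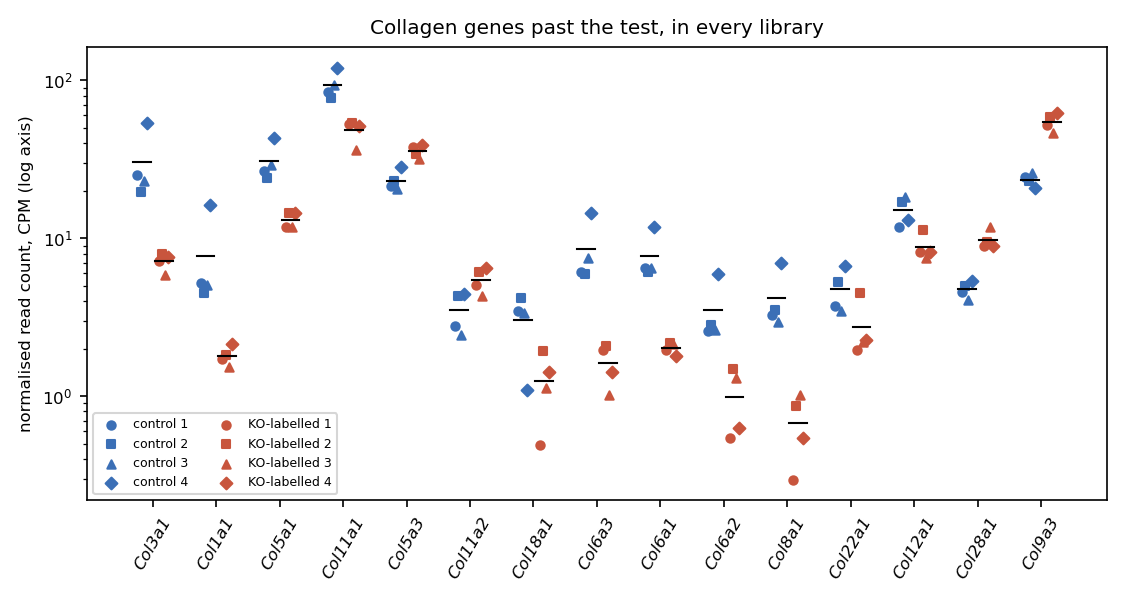
Normalised read count (CPM, log axis) of the 15 collagen genes that passed the test, with 1 point per library and a bar at each group's mean. Control 4 (blue diamond) is the highest control for Col3a1 at 54.0 and for Col1a1 at 16.2 CPM, and the KO-labelled values of both genes lie below all controls.

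All 3 classical type VI chains fell. Col6a1, Col6a2 and Col6a3 assemble into the type VI monomer, and their genes are known for muscle disease. Col6a3 had 6.08, 5.92, 7.55 and 14.5 CPM in the controls, against 1.97, 2.09, 1.01 and 1.43 CPM in the KO-labelled group. It fell, with a log2 fold change of -2.40 (SE 0.31, edgeR adjusted p = 5.66e-05), or -2.03 without control 4. Col6a1 had 6.47, 6.13, 6.51 and 11.8 CPM in the controls, against 1.97, 2.18, 2.14 and 1.80 CPM in the KO-labelled group (log2 fold change -1.94, SE 0.23, edgeR adjusted p = 2.59e-05). Without control 4 the value of Col6a1 was -1.68. Col6a2, which lies next to Col6a1 on chromosome 10, had 2.58, 2.82, 2.64 and 5.95 CPM in the controls, against 0.541, 1.48, 1.30 and 0.629 CPM in the KO-labelled group. It fell, with a log2 fold change of -1.89 (SE 0.38, edgeR adjusted p = 0.00176), or -1.52 without control 4. In all 3 genes control 4 was about as far above the other controls, at 1.86 to 2.23 times their mean, and no KO-labelled library reached any control.

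The other type VI genes, Col6a4 and Col6a5, which lie side by side on chromosome 9, did not pass the test (log2 fold changes -0.33 and -0.93, 95% intervals -1.65 to 0.99 and -2.37 to 0.50). Their values overlapped between the groups and were at most 2.07 CPM. The summed level of the 6 type VI genes was 16.1, 18.8, 18.9 and 36.1 CPM in the controls, against 4.97, 9.93, 6.37 and 5.32 CPM in the KO-labelled group.

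Col8a1, a chain of the network-forming collagen of vessel walls and of the membrane under the corneal endothelium, had the largest fall of the 40 genes. It had 3.29, 3.53, 2.97 and 6.98 CPM in the controls, against 0.295, 0.871, 1.01 and 0.545 CPM in the KO-labelled group, with no overlap. The log2 fold change was -2.66 (SE 0.38, edgeR adjusted p = 0.00012), or -2.32 without control 4. Its partner Col8a2 was not tested and had at most 6 counts in any library.

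The promoters of genes that changed are shown because several of them moved together and because their sequences can be compared. Each line gives the 150 bases that end just before the outermost annotated start of the gene, from RefSeq on GRCm38.p6, on the gene's own strand. Of the 44 genes 35 had a promoter entry. The genes are Col3a1 (chr1:45311388-45311537, plus strand), Col6a1 (chr10:76726045-76726194, minus), Col6a2 (chr10:76623631-76623780, minus), Col6a3 (chr1:90844002-90844151, minus) and Col8a1 (chr16:57754738-57754887, minus), which fell, and Col5a3 (chr9:20815118-20815267, minus), which rose. Capitals mark the motif CCAAT (the CCAAT box), the motif TATAAA (the TATA box) and the motif GGGCGG (the GC box) on either strand; none of these motifs is contained in another.
Col3a1: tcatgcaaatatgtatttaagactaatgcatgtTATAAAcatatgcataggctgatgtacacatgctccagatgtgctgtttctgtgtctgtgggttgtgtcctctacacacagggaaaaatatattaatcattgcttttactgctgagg
Col6a1: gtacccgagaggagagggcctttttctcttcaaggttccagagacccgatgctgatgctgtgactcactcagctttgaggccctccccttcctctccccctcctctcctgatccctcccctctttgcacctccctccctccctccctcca
Col6a2: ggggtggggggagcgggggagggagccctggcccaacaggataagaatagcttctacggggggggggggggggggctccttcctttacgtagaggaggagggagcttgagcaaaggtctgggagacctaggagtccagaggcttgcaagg
Col6a3: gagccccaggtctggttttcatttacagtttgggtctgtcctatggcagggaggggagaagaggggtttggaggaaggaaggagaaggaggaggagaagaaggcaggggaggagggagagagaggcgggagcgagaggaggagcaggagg
Col8a1: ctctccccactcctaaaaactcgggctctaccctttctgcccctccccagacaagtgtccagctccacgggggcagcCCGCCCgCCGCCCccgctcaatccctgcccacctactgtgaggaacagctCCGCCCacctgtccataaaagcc
Col5a3: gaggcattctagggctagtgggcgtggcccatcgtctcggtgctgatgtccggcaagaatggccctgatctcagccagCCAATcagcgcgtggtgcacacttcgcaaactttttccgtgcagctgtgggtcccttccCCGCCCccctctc

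None of the motifs was found in the 3 type VI windows. Col3a1 held 1 TATA box, Col8a1 held 3 GC boxes, and Col5a3 held 1 CCAAT box and 1 GC box. Of 27025 mouse promoters cut to the same length, 25.3% held the CCAAT box, 8.08% the TATA box and 29% the GC box. Those windows ended before the start of the first listed entry of each gene, which need not be its outermost start. The G and C content was 37.3% in the Col3a1 window and between 59.3% and 64.7% in the other 5, beside a median of 54.0% over all promoters. A match is a description of letters, not of binding.

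The most abundant basement membrane collagens did not pass the test. Col4a1 and Col4a2 encode the chains of the ubiquitous type IV network and lie head to head on chromosome 8. Col4a2 had 13.1, 12.6, 14.8 and 12.4 CPM in the controls, against 12.6, 13.1, 10.1 and 11.4 CPM in the KO-labelled group (log2 fold change -0.17, adjusted p = 0.331 by edgeR, 95% interval -0.43 to 0.09). Col4a1 had 6.63, 5.70, 8.25 and 5.11 CPM in the controls, against 4.38, 6.62, 6.03 and 4.61 CPM in the KO-labelled group (-0.26, adjusted p = 0.319 by edgeR, 95% interval -0.67 to 0.14). For both genes the groups overlapped and control 4 was the lowest control.

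The X-linked pair Col4a5 and Col4a6, neighbours on the X chromosome, also did not pass, in groups that differ in sex. Col4a6 had 29.9, 29.8, 30.7 and 23 CPM in the controls, against 27.7, 28.9, 23.5 and 27 CPM in the KO-labelled group (log2 fold change -0.09, adjusted p = 0.618 by edgeR, 95% interval -0.33 to 0.16). Col4a5, the chain affected in X-linked Alport syndrome, had 16.5, 19.9, 18.1 and 15.2 CPM in the controls, against 15.4, 20.6, 14.5 and 18.7 CPM in the KO-labelled group (-0.02, adjusted p = 0.939 by edgeR, 95% interval -0.30 to 0.27). For both genes the groups overlapped, and the intervals allow a fall to -0.33 for Col4a6 and a rise to 0.27 for Col4a5.

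Col18a1, whose C-terminal fragment is endostatin, was the basement membrane gene that fell. It had 3.45, 4.18, 3.35 and 1.10 CPM in the controls, against 0.492, 1.92, 1.13 and 1.43 CPM in the KO-labelled group. Control 4 lay among the KO-labelled values, so the groups overlapped. The log2 fold change was -1.34 (SE 0.41, edgeR adjusted p = 0.0237), and -1.62 without control 4. The call was lost without control 1 (adjusted p = 0.0557), control 2 (0.0797), control 3 (0.0546), KO-labelled 1 (0.0676) or KO-labelled 3 (0.0539). Col4a3, Col4a4 and Col15a1 had 1.94 CPM or less in every control and did not pass. Col4a4 came nearest, at -1.49 (SE 0.55, edgeR adjusted p = 0.0539), and passed without control 1 (0.0369) or KO-labelled 2 (0.0335).

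Among the other collagens are the FACIT genes, whose products sit on the surface of fibrils. Of these, 1 of 9 was higher and 2 were lower, beside 16.1% and 13.9% of all genes. Col9a3, a chain of the type IX collagen found on cartilage fibrils, had 24.3, 23.1, 25.8 and 20.8 CPM in the controls, against 52.5, 58.3, 46.6 and 62.2 CPM in the KO-labelled group. It had the largest rise of the 40 genes, by 1.22 (SE 0.11, edgeR adjusted p = 2.14e-06), with no overlap, and 1.16 without control 4. Its partners Col9a1 (log2 fold change 0.22, SE 0.23, edgeR adjusted p = 0.518) and Col9a2 (0.35, SE 0.20, adjusted p = 0.22) did not pass, and their groups overlapped.

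Col12a1, another FACIT gene, had 11.8, 17, 18.2 and 13.1 CPM in the controls, against 8.17, 11.3, 7.55 and 8.22 CPM in the KO-labelled group. The groups did not overlap, and the gene fell, with a log2 fold change of -0.78 (SE 0.17, edgeR adjusted p = 0.00264). Col22a1, which is known from the junction of muscle and tendon, fell, with a log2 fold change of -0.85 (SE 0.28, edgeR adjusted p = 0.0332), from 4.78 ± 1.48 to 2.74 ± 1.2 CPM (SD, n = 4 each), with overlap. That call was lost without control 2 (adjusted p = 0.0783), control 4 (0.0625), KO-labelled 1 (0.104), 3 (0.0787) or 4 (0.0978). Col14a1, Col16a1, Col19a1 and Col20a1 did not pass.

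Col28a1, a collagen with von Willebrand factor domains that is known from peripheral nerve, was 2.06-fold higher. It had 4.55, 4.99, 4.06 and 5.37 CPM in the controls, against 8.91, 9.50, 11.8 and 8.93 CPM in the KO-labelled group. All KO-labelled values lay above all controls, and the log2 fold change was 1.04 (SE 0.15, edgeR adjusted p = 0.00013). Of the transmembrane collagens, Col17a1, Col23a1 and Col25a1 were tested and none passed. Col23a1, the most abundant of them per kilobase, had a log2 fold change of 0.03 (95% interval -0.40 to 0.45). Col7a1, the anchoring fibril collagen, and Col26a1 did not pass either (-0.41 and -0.62).

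**Figure D3:**
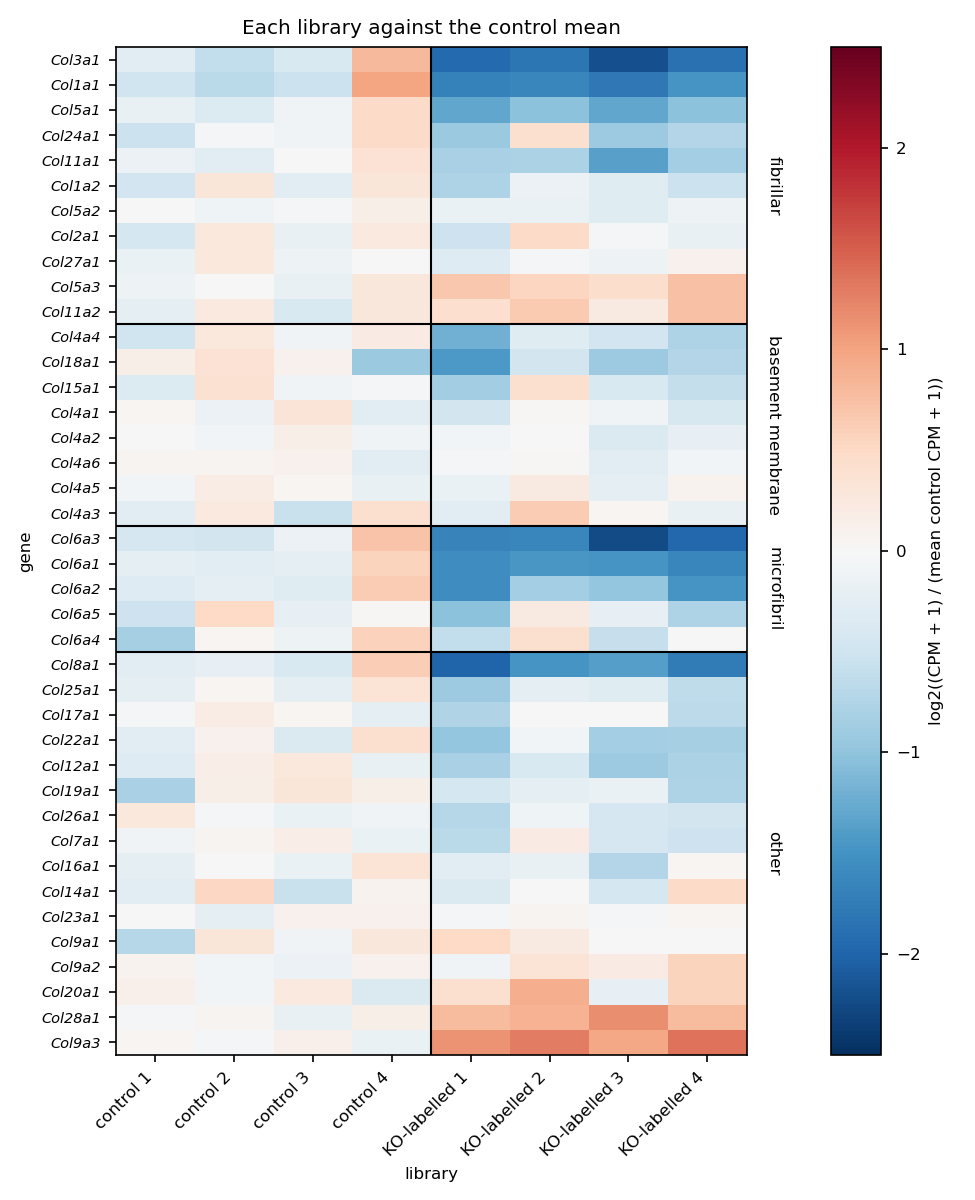
Each of the 40 tested genes in each library as log2 of (CPM + 1) over (mean control CPM + 1), grouped by class; blue is lower and red higher than the control mean. Control 4 is the reddest control for 9 of 11 fibrillar and 4 of 5 microfibril genes, and KO-labelled 1 is the bluest KO-labelled library for 21 of the 40 genes.

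The spread of the controls was uneven between classes. The median over a class of each library's difference from the control mean, on the scale of log2(CPM + 1), was -0.16, -0.01, -0.16 and 0.34 in controls 1 to 4 for the fibrillar genes. For the microfibril genes it was -0.34, -0.17, -0.16 and 0.65. The basement membrane genes had -0.04, 0.24, 0.09 and -0.13 and the other collagens -0.14, 0.07, -0.09 and 0.13. In the KO-labelled libraries the fibrillar median was -0.73, -0.10, -0.30 and -0.49 and the microfibril median -1.48, -0.80, -0.91 and -1.40. Control 4 was thus as high as 0.65 in a class whose KO-labelled libraries were all at -0.80 or below, and KO-labelled 2 lay inside the range of the controls for fibrillar genes. The spread of single genes that fell differed between genes. The SD was 73.2% of the mean for Col1a1 among the controls and 14.3% in the KO-labelled group, and for Col3a1 52.3% and 12.7%. For Col8a1 it was 44.7% and 47.5%, and for Col6a2 46.8% and 47.8%, near equal in the groups. In all of these genes control 4 was far above the other controls, at 2.14 to 3.3 times their mean.

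The least abundant collagens followed another order of the libraries. The 12 genes with a mean under 1 CPM summed to 4.77, 13.1, 7.48 and 12.2 CPM in controls 1 to 4 and to 1.03, 12.6, 5.69 and 3.56 CPM in KO-labelled libraries 1 to 4. None of the 8 that could be tested passed. Olfactory and vomeronasal receptor genes, 1457 genes that neural progenitors are not known to use, summed to 66.3, 153.0, 99.6 and 128.7 CPM and to 31.6, 126.4, 87.2 and 48.0 CPM in the same libraries. Both sums were lowest in KO-labelled 1, next lowest in KO-labelled 4 and then in control 1, and both were highest in control 2. KO-labelled 1 was also the lowest KO-labelled library for Col8a1, Col6a2, Col18a1 and Col22a1 among the genes that fell, and the last 2 lost their call without it. The part of this low-level signal in those values was not tested.

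Ratios between chains within a library do not depend on library scaling. Of 16 pairs compared, chosen partly after their values were seen, 8 did not overlap between the groups, each with the smallest p that 4 against 4 libraries can give (exact permutation test, two-sided, p = 0.0286). After Benjamini-Hochberg adjustment over the 16 pairs these became 0.0572, above 0.05. No pair can go below that smallest p, so the adjusted value depends on how many pairs reach it. The ratios use the same counts as the tests of single genes, so their separation is not separate support for those tests. The share over pairs of all genes was not computed. The count of Col5a3 was 0.797, 0.950, 0.704 and 0.660 times that of Col5a1 in the controls and 3.18, 2.37, 2.69 and 2.69 times in the KO-labelled group, with no overlap. Col11a1 had 30.0, 17.6, 37.4 and 26.8 times the count of Col11a2 in the controls and 10.4, 8.73, 8.39 and 7.97 times in the KO-labelled group.

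Col3a1 and Col5a2 are neighbours on chromosome 1, with no protein-coding gene between them in RefSeq. The count of Col3a1 was 0.124, 0.104, 0.115 and 0.239 of that of Col5a2 in the controls, against 0.0395, 0.0438, 0.0356 and 0.0406 in the KO-labelled group. The mean log2 ratio differed by -1.79 between the groups. By contrast, the ratio of Col4a1 to Col4a2 was 0.415 to 0.557 over the controls and 0.348 to 0.596 over the KO-labelled group (exact permutation p = 0.714, adjusted 0.816). The Col4a5 to Col4a6 ratio (exact permutation p = 0.571, adjusted 0.703) and the Col6a1 to Col6a2 ratio (0.914, adjusted 0.914) also overlapped. The ratios of Col4a3 to Col4a4 did not overlap, but Col4a4 had 1 count in KO-labelled 1.

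**Figure D4:**
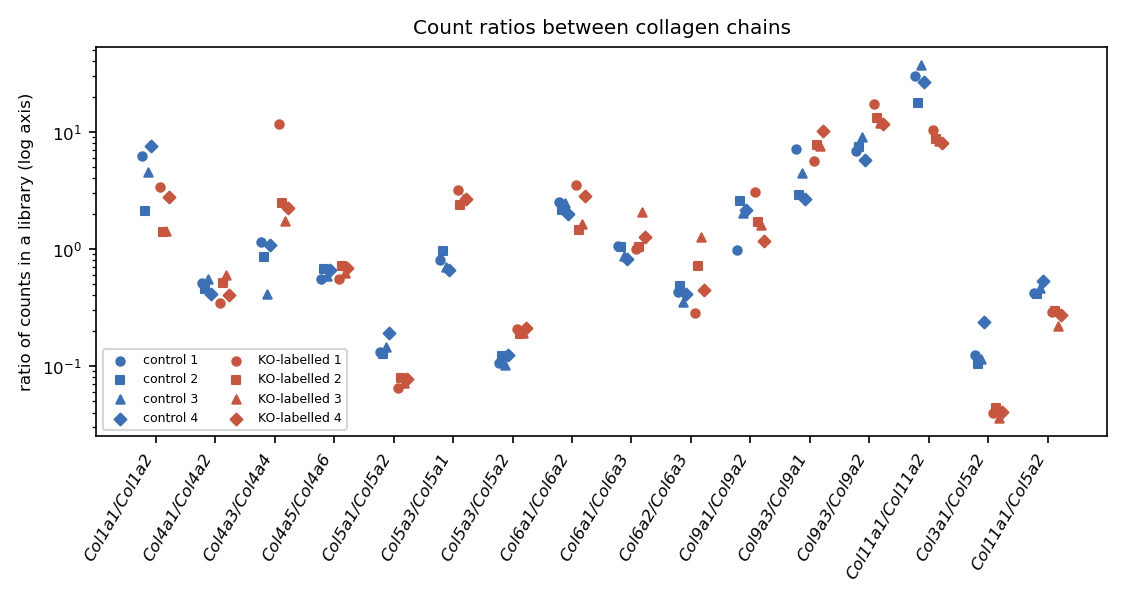
Ratio of the counts of 2 collagen chains within a library (log axis) for 16 pairs, with 1 point per library. Col5a3/Col5a1 lies between 0.660 and 0.950 for the controls and between 2.37 and 3.18 for the KO-labelled group, while Col4a5/Col4a6 overlaps.

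Of 22 tested genes of chain modification, folding and export of collagen, 5 passed the test, beside 30% of all genes. By direction, 5 rose and 0 fell, beside 16.1% and 13.9% of all genes. Their median log2 fold change was 0.16. Serpinh1, the collagen-specific chaperone HSP47, had 99.8, 59.9, 68.3 and 68.9 CPM in the controls, against 127.7, 126.7, 131.0 and 125.1 CPM in the KO-labelled group (0.78, SE 0.13, edgeR adjusted p = 0.000427). Plod1, a lysyl hydroxylase, rose by 0.62 (SE 0.09, edgeR adjusted p = 0.000134), and Tmem38b, an ion channel of the endoplasmic reticulum, by 0.67 (SE 0.15). In all 3 genes the KO-labelled libraries lay above all controls. Ctage5, of collagen export, rose by 0.37. P3h4, a cofactor of prolyl and lysyl hydroxylation, rose by 0.54 (SE 0.19, edgeR adjusted p = 0.0476). Control 4 was at 21.1 CPM, beside 39.9 to 50.7 CPM in the other controls, and without it the rise was 0.33. The P3h4 call was lost under 10 of 16 alternatives, among them leaving out control 2, control 3 or any KO-labelled library. The number that rose was 3 without KO-labelled 4, and 1 gene fell without KO-labelled 2.

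Of 12 genes of propeptide cleavage and cross-linking, 2 rose and 2 fell, so that 4 of 12 passed beside 30.0% of all genes. Loxl2, a lysyl oxidase that cross-links type IV collagen, rose from 4.01 ± 0.793 to 7.82 ± 1.72 CPM (0.97, SE 0.19, edgeR adjusted p = 0.00177). Pcolce2, an enhancer of procollagen cleavage, fell from 8.92 ± 1.54 to 4.06 ± 0.614 CPM (-1.15, SE 0.17, edgeR adjusted p = 0.000149). In both genes the groups did not overlap. Pcolce, its relative, fell at a low level, from 1.77 to 0.675 CPM (-1.38). Control 4 was at 3.75 CPM, beside 0.774 to 1.37 CPM in the other controls and 0.629 to 0.733 CPM in the KO-labelled group. Loxl3 rose by 0.41 (SE 0.15, edgeR adjusted p = 0.0486), a call lost under 10 of 16 alternatives: with DESeq2 (adjusted p = 0.0732), RLE scaling (0.0576), upper-quartile scaling (0.0649), the strict filter (0.0535) or the replicate block (0.0551), and without control 2 (0.137), control 3 (0.0865), control 4 (0.0953), KO-labelled 1 (0.156) or KO-labelled 4 (0.164). The 2 falls became 1 without control 4 or without KO-labelled 1 or 3.

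The largest change in the pathway was in a receptor. Ddr2, a receptor tyrosine kinase that binds fibrillar collagen, had 18.6, 17.4, 21.2 and 31.4 CPM in the controls, against 362.6, 314.0, 294.1 and 382.5 CPM in the KO-labelled group. It was 15.3-fold higher (log2 fold change 3.94, SE 0.17, edgeR adjusted p = 1.31e-09), while its ligands Col1a1 and Col3a1 fell. Of the 9 receptor genes tested Ddr2 alone rose and 2 fell, so that 3 of 9 passed beside 30.0% of all genes. These were Mrc2, which takes up collagen fragments (-1.27, SE 0.22, edgeR adjusted p = 0.000599), and Itga1, the collagen-binding integrin subunit alpha 1 (-0.73, SE 0.14, adjusted p = 0.00102). Ddr1, the relative of Ddr2, did not pass (-0.17, adjusted p = 0.349 by edgeR).

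Of 9 genes of collagen breakdown and its inhibition, 3 rose and 1 fell, beside 16.1% and 13.9% of all genes, and all 3 that rose encode inhibitors of metalloproteinases. Timp4 rose from 151.4 ± 14.4 to 335.4 ± 35.7 CPM (1.15, SE 0.10, edgeR adjusted p = 1.43e-06), Timp3 by 0.68 (SE 0.17, adjusted p = 0.00849), or 0.94 without control 4, and Timp2 by 0.49 (SE 0.09, adjusted p = 0.00114). The protease gene Ctsk fell, from 2.93 to 1.22 CPM (-1.25). Without control 1, control 4 or KO-labelled 2 the number that fell was 2. Of 14 laminin, nidogen and proteoglycan genes of the basement membrane, 2 rose and 3 fell, so that 5 of 14 passed, near the 30.0% of all genes. Lamb1 fell from 153.8 ± 16 to 100.9 ± 12.4 CPM (-0.61, SE 0.11, edgeR adjusted p = 0.000592). Lama1, the laminin chain of early basement membranes, had 19.5, 19.3, 21.2 and 102.5 CPM in the controls, against 12.7, 12.5, 9.64 and 13.2 CPM in the KO-labelled group (-1.75, SE 0.46, edgeR adjusted p = 0.0105), or -0.74 without control 4. With a robust dispersion Lama1 did not pass (adjusted p = 0.104). Hspg2, which encodes perlecan, fell (-0.66, SE 0.17, edgeR adjusted p = 0.0112), and Agrn, which encodes agrin, rose (0.49, SE 0.12, adjusted p = 0.00773). Lamb2, another laminin chain, rose by 0.47. The 2 rises became 1 without KO-labelled 4, and the 3 falls were 2 with DESeq2 or a robust dispersion and 5 with voom.

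**Figure D5:**
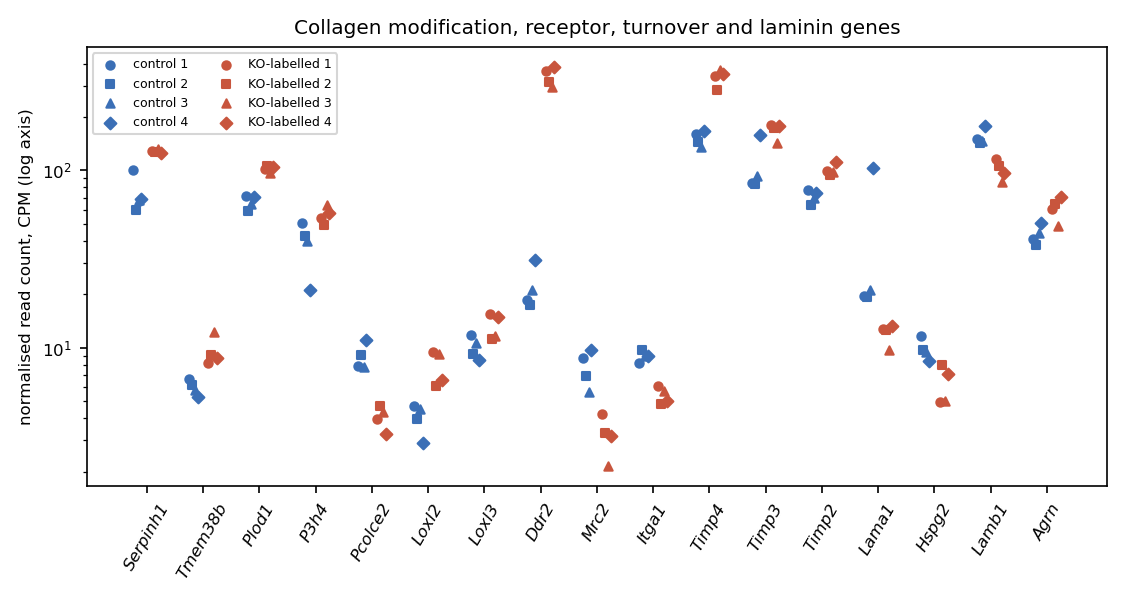
Normalised read count (CPM, log axis) of the genes named from the lists of collagen modification, processing, receptors, breakdown and basement membrane partners, with 1 point per library. Ddr2 lies between 17.4 and 31.4 CPM over the controls, against 294.1 and 382.5 CPM in the KO-labelled libraries, and control 4 stands apart for Lama1 at 102.5 CPM.

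Markers of the cells that make fibrillar collagen were partly lower as well. Of 20 mesenchymal markers 13 were tested; 5 fell and 1 rose, beside 13.9% and 16.1% of all genes, with a median of -0.55. Ogn, a matrix proteoglycan, had 4.88, 6.19, 5.16 and 8.79 CPM in the controls, against 0.541, 0.523, 1.58 and 0.671 CPM in the KO-labelled group (-2.89, SE 0.32, edgeR adjusted p = 1.3e-05). Pdgfra, also a gene of oligodendrocyte precursors, fell, with a log2 fold change of -0.64 (SE 0.16, edgeR adjusted p = 0.00972). Prrx1 fell, with a log2 fold change of -0.41 (SE 0.12, edgeR adjusted p = 0.0232), a call lost without control 1 (adjusted p = 0.0603), control 3 (0.0837), KO-labelled 3 (0.065) or KO-labelled 4 (0.0812). Lum (-1.79) and Mgp (-3.36), both matrix genes, fell from 3.27 to 0.936 and from 2.31 to 0.212 CPM. For Mgp control 4 was at 4.59 CPM, beside 1.25 to 1.74 CPM in the other controls. Twist1 rose from 0.345 to 2.02 CPM (2.49). The summed level of the 20 markers was 123.5 to 202.9 CPM in the controls, against 173.6 to 191.8 CPM in the KO-labelled group. The lowest sum was in control 4, where Thy1 was at 9.25 CPM beside 79.7 or more in every other library. Thy1 was the largest part of the sum in every library but control 4, at 94.4 to 107.8 CPM in the KO-labelled group. Without Thy1 the sums did not overlap, and the controls were higher. Dcn, a defining fibroblast gene, was at 0.388 CPM or less in every library and Pdgfrb at 0.706 or less. The part of mesenchymal cells in the collagen values was not tested.

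For the marker counts that follow, 13.9% of all genes fell and 16.1% rose. Of 10 endothelial markers 4 were tested and 2 fell, Kdr (-1.44, SE 0.30, edgeR adjusted p = 0.00256, or -1.13 without control 4) and Flt1 (-1.21). The sum of all 10 endothelial markers was 10.7 to 18.2 CPM in the controls, against 4.19 to 9.15 CPM in the KO-labelled group. Cdh5 and Cldn5 did not exceed 0.814 and 0.113 CPM. Of 10 pericyte markers 4 were tested: Notch3, also a gene of radial glia, rose (0.67, SE 0.13) and Cspg4, also a gene of oligodendrocyte precursors, fell (-0.60, SE 0.16). The pericyte sum was 80.4 to 95.3 CPM in the controls, against 101.5 to 146.9 CPM in the KO-labelled group, most of it from Notch3. Of 10 muscle markers 5 were tested and 3 fell, Myh8 (-0.88, SE 0.13), Des (-1.43) and Tnnt1 (-2.20). Des and Tnnt1 averaged only 1.28 and 2.09 CPM in the controls, and Actc1 did not pass (-0.11). Myog and Myod1 did not exceed 0.261 and 0.488 CPM in any library. The sum of the list was 38.8 to 50.4 CPM in the controls, against 24.4 to 26.4 CPM in the KO-labelled group. Most of it came from Myh8, at 28.1 to 38.1 and 15.6 to 19.5 CPM. Of 10 cartilage markers 6 were tested and Acan fell (-1.63), and the sums overlapped at 105.5 to 130.6 and 121.2 to 174.1 CPM. Sox9 made up most of these sums, at 100.6 to 123.1 and 114.2 to 170.0 CPM. Of 8 neural crest and Schwann markers 4 were tested and 2 rose, among them Sox10 (0.46, SE 0.13), also a gene of oligodendrocyte lineage cells. The crest sums were 40.9 to 64.4 and 61.4 to 73.6 CPM. Sox10 lost its call without control 2 (adjusted p = 0.0636 by edgeR), control 3 (0.0547) or KO-labelled 4 (0.0652).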

How the data were processed

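The authors deposited raw counts for each gene in 8 libraries. HTSeq 0.6.1p1, CASAVA and the builds NCBIM37 and mm9 are named in the submitters' processing notes. Which aligner and strand setting served is not given in the sources used here, so overlapping and antisense genes may share reads. A kit for stranded total RNA was used, per the labels' protocols. Genes were filtered with filterByExpr, scaled by TMM and tested over 15021 genes in edgeR 4.0.16 (quasi-likelihood, R 4.3.3), and p-values were adjusted by Benjamini-Hochberg and called at 0.05. A fold change is KO-labelled over control. Its SE is the absolute value over the root of F. No pair of libraries in a group agreed within sampling noise (chi-square per degree of freedom 4.45 to 36.2). The fit was tested on simulated data.

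CPM use TMM-adjusted library sizes. Exon lengths (GENCODE M21), chromosomes and promoters (RefSeq) come from GRCm38 by symbol, another assembly than that of the counts, and matched all 44 genes except for promoters. Chain ratios add 0.5 to each count. The members, the 12 gene lists (chain modification, processing, receptors, breakdown, basement membrane partners, and mesenchymal, endothelial, pericyte, cartilage, crest, muscle and progenitor markers) and the tests were chosen with earlier results of these data known. The named-gene rule takes every collagen gene past the threshold with its partner chains, the 2 most abundant per class, and per list up to 4 called genes of largest fold change whose higher group averages 5 CPM or more, or the 2 most abundant where none passed. Ctage5, Pcolce, Ctsk, Lamb2, Lum, Mgp, Twist1, Flt1, Des, Tnnt1, Acan, Fabp7, Thy1, Dcn, Pdgfrb, Cdh5, Cldn5, Ddr1 and the receptor genes of smell stand outside it and were chosen after their values were seen. Sox9, Vim, Actc1, Myog and Myod1 also stand outside the rule and were chosen after their values were seen. Of 23 modification genes 1 was not found by its symbol. Alternatives were DESeq2 1.42.0, voom of limma 3.58.1 with quality weights, other scalings, dispersions and filters, a replicate block and leaving out each library. The values of 1 marker gene are not reported here.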

Additional observations from a re-analysis of the deposited data

Results flagged for a closer look

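Of 110 groups of 4 libraries checked, 12 held a library whose gap to the next, as a share of the group's range, passed Dixon's 95% critical value, where chance flags about 1 in 20. Control 4 was the library in 8 of them. It was the highest control for Col1a1 (16.2 CPM, others 4.50 to 5.21), Col3a1 (54.0 CPM, others 19.5 to 25.1), Col6a1 (11.8 CPM, others 6.13 to 6.51), Col6a2 (5.95 CPM, others 2.58 to 2.82) and Col8a1 (6.98 CPM, others 2.97 to 3.53). It was also the highest for Lama1 (102.5 CPM, others 19.3 to 21.2) and Timp3 (158.3 CPM, others 83.4 to 93.1), and the lowest for Col4a6 (23 CPM, others 29.8 to 30.7).

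The other 4 were in the KO-labelled group. KO-labelled 3 was the lowest for Col11a1 (36.1 CPM, others 51.6 to 53.6) and the highest for Ogn (1.58 CPM, others 0.523 to 0.671). KO-labelled 2 was the highest for Col22a1 (4.53 CPM, others 1.97 to 2.26), and KO-labelled 4 the highest for Msi1 (66.7 CPM, others 43.5 to 45.6).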

How the results depend on the processing

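Of the 15 collagen genes past the threshold, 12 passed under all 16 alternatives; Col11a2, Col18a1 and Col22a1 did not, and no call changed direction. The number that fell was 20 with voom and quality weights beside 11, and the cause was not tested. It was between 9 and 16 when 1 library was left out, with 16 without KO-labelled 2. The number that rose was 3 to 5 under the same omissions. The median of the other collagens was -0.18 with the strict filter (at least 1 CPM in 4 libraries), which tests fewer genes. The basement membrane median was -0.13 without control 3. Upper-quartile scaling moved all genes by a median of -0.038 on the log2 scale.

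Same-numbered libraries correlated at 0.161, 0.203, -0.201 and 0.043 in their deviations from the group means. Differently numbered ones correlated at -0.282 to 0.151. With 4 libraries in each group these values cannot decide whether the numbers pair the libraries. With the replicate block 12 collagen genes fell and 4 rose, and Col4a4 passed at -1.56 (adjusted p = 0.0182 by edgeR). How far depth limits the calls was not tested.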

Other observations

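The collagen genes that passed the test lie on many chromosomes. Chromosome 2, which carries Trp53bp1, holds 3 of the 40 tested: Col9a3 rose, Col5a1 fell and Col20a1 did not pass. Over all genes of chromosome 2, 29.3% passed the test. All 3 collagen genes tested on chromosome 10 fell (Col6a1, Col6a2 and Col18a1). Of the 655 genes tested there, 31.8% passed in either direction and 18.6% were higher. Col6a1 and Col6a2 are neighbours, and the call of Col18a1 was lost when some single libraries were left out.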
